A study of Mus musculus with 8 samples.

Results

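The genes described here encode the classical axon guidance ligands and receptors, as measured by RNA-Seq in the mouse temporal association cortex (TeA), a higher-order area next to the auditory cortex. Members were chosen by gene symbol: semaphorins of classes 3 to 7, plexins, neuropilins, Eph receptors, ephrins, Slits, Robos, netrins, Unc5 receptors and Dcc. The rule found 68 of the 15437 genes in the table, and used no measured value. Unc50 carries a matching symbol but is no netrin receptor. It encodes a Golgi membrane protein named after a worm gene, and without it the tested set was 57 genes rather than 58.

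Guidance cues steer growing axons by attraction or repulsion, and many are also made in the adult cortex, where they act on dendritic spines, synapses and blood vessels. Semaphorins signal through plexins, and most secreted class 3 semaphorins need a neuropilin as co-receptor. EphA receptors mainly bind the lipid-anchored ephrin-As and EphB receptors the transmembrane ephrin-Bs, with signals passing into both cells. Slits repel through Robos, and netrin-1 attracts through Dcc and repels through Unc5 receptors.

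The 5 Arc-dVenus+ libraries were pools of manually sorted cells, 3 from fear conditioned (FC) mice, which heard tones paired with footshocks, and 2 from shock-only mice, which received footshocks without tones. The 3 bulk-tissue libraries were whole TeA tissue of 1 FC and 2 shock-only mice, treated with the same protease. All mice were male C57BL/6 carriers of Arc-dVenus (+/-), aged 60 to 90 days and taken 6 h after behavior. The reporter is a short-lived fluorescent protein, Venus, under control of the promoter of Arc, an immediate-early gene of active neurons, so that sorting on Venus selects both for activity and for the cell types in which the reporter is on. Context-only mice gave no sorted library, and bulk tissue also holds Arc-dVenus+ cells. The FC pools are named FC39, FC40 and FC23 and the shock-only pools Shock30 and Shock33. The study's figure legend gives these numbers as cells, whereas its methods give another range of cells per pool. Below, 5 values in a row are FC39, FC40, FC23, Shock30 and Shock33, and 3 values in a row are FC bulk tissue and then shock-only bulk tissue 1 and 2.

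Library totals were 10223586 to 24151755 counts in Arc-dVenus+ pools and 7110598 to 9846374 counts in bulk tissue, and 1500 to 2631 genes were at 0 in a pool, against 108 to 131 in a bulk library. Levels are in CPM, a gene's count scaled to the same total in each library. They are not divided by gene length, so they compare libraries and not genes. Fold changes are Arc-dVenus+ over bulk tissue, on a log2 scale, from the quasi-likelihood test of edgeR, which was fitted with TMM scaling to 12493 genes that reached 20 CPM summed over the libraries. A call of enriched or de-enriched needed a Benjamini-Hochberg adjusted p under 0.05 and more than a 2-fold difference, a log2 fold change past 1 or -1. Each mouse gave 1 library as far as the labels tell, so p-values measure the spread between these few animals and their small amplified samples.

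Of the 68 guidance genes, 58 reached the minimum and were tested. The plexin receptors Plxna2 and Plxna4, the secreted ligand Slit3 and the transmembrane semaphorin Sema4a were enriched in Arc-dVenus+ cells, 2.37-fold to 3.42-fold. The semaphorins Sema3c, Sema4g and Sema6d and the plexin Plxnb1 were de-enriched. The 4 enriched genes are 6.90% of the 58, where 3.13% of all tested genes were enriched, and the 4 de-enriched genes are 6.90%, where 6.58% of all tested genes were de-enriched. The share of de-enriched guidance genes is thus near that of all genes. No Eph receptor, ephrin, netrin or netrin receptor was called. Log2 fold changes were positive for 34 and negative for 24 of the 58 genes, with a median of 0.16 (0.10 over all tested genes). With library totals alone in place of TMM, the median of all tested genes shifted by -0.25, that of the guidance genes was -0.09, and 23 were positive and 35 negative. Over all tested genes, 32.2% of calls were enriched with TMM and 12.7% with library totals alone.

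**Figure D1:**
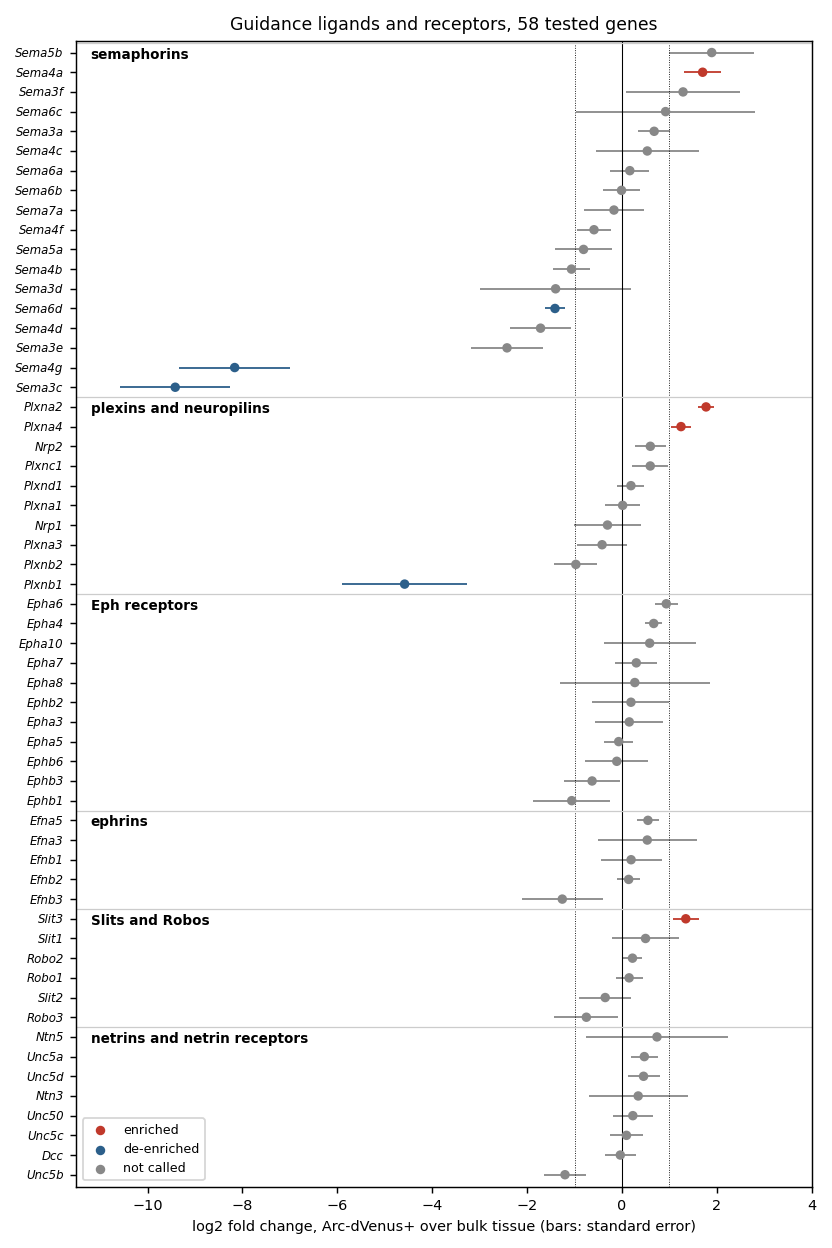
Log2 fold changes of the 58 tested guidance genes, Arc-dVenus+ over bulk tissue, grouped by family, with bars of 1 standard error and dotted lines at -1 and 1. The 4 enriched genes lie between 1.24 and 1.77, the de-enriched Sema3c and Sema4g lie beyond -8, and most genes lie near 0.

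Plxna2, a class A plexin that binds Sema6 proteins directly and class 3 semaphorins together with neuropilins, was the guidance gene with the lowest adjusted p. It lies at chr1:196446023-196643063 on the plus strand of mm9. It measured 716, 679, 664, 610.1 and 944 CPM in the Arc-dVenus+ pools, against 242, 259.6 and 256 CPM in bulk tissue. Every pool was above every bulk library, and Shock33 was the highest. The means were 723 ± 129 CPM (SD, n = 5) and 253 ± 9.23 CPM (SD, n = 3), and the log2 fold change was 1.77 (standard error 0.17, adjusted p = 0.000119 in edgeR's quasi-likelihood test). It was called in all 8 fits that left out 1 library, at 1.65 to 1.92.

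Plxna4, a class A plexin that together with neuropilin-1 forms a receptor of Sema3a, lies at chr6:32094565-32538192 on the minus strand. It measured 378, 463, 411, 310.3 and 614 CPM in Arc-dVenus+ pools, against 216, 214 and 228 CPM in bulk tissue, again with no overlap. Its log2 fold change was 1.24 (standard error 0.22, adjusted p = 0.00360 in edgeR's quasi-likelihood test). With library totals alone it was 0.99, under the fold required, at an adjusted p of 0.0124. Its exons overlap those of an annotated gene over 0.874% of their length.

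Slit3, a secreted Robo ligand, lies at chr11:34934726-35522009 on the plus strand. It measured 121, 117, 122, 94.98 and 166 CPM in Arc-dVenus+ pools, against 70.5, 39.8 and 64.8 CPM in bulk tissue. The groups did not overlap, and shock-only bulk tissue 1 was the lowest library. The log2 fold change was 1.35 (standard error 0.27, adjusted p = 0.00800 in edgeR's quasi-likelihood test). Without shock-only bulk tissue 1 it was 1.11, with an adjusted p of 0.0591.

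Sema4a, a transmembrane semaphorin with known roles in immune cells and the retina, lies at chr3:88239881-88265104 on the minus strand. It measured 35.8, 62.8, 82.3, 32.1 and 56.5 CPM in Arc-dVenus+ pools, against 18.95, 20.6 and 19.8 CPM in bulk tissue. The pools spread widely, but the lowest stayed above bulk tissue. The log2 fold change was 1.70 (standard error 0.39, adjusted p = 0.0156 in edgeR's quasi-likelihood test). The call was lost without FC bulk tissue (log2 fold change 1.64, adjusted p = 0.0996) and without shock-only bulk tissue 1 (1.71, 0.0852) or 2 (1.69, 0.0832). It was also lost by limma-voom (1.58, adjusted p = 0.108).

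Sema3c, a secreted class 3 semaphorin, was nearly absent from Arc-dVenus+ cells. It lies at chr5:17080099-17236086 on the plus strand. It measured 0, 0.0751, 0, 0 and 0 CPM in Arc-dVenus+ pools, which is 1 count in all, against 14.5, 18.9 and 18.4 CPM in bulk tissue, which is 424 counts. On counts per TMM-scaled total it was 1262-fold lower in Arc-dVenus+ cells, with a 95% exact counting interval of 225 to 49951, which covers counting error only. The fitted log2 fold change was -9.42 (standard error 1.16, adjusted p = 0.000490 in edgeR's quasi-likelihood test). Without FC40 no count was left and the fitted value was -10.73. The level was then at least 356-fold lower, with 3 counts over the remaining pools as the floor, again for counting error only.

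Sema4g, a transmembrane class 4 semaphorin, lies at chr19:45063591-45077887 on the plus strand. It measured 0.0588, 0, 0, 0.0414 and 0 CPM in Arc-dVenus+ pools, which is 2 counts in all, against 13.3, 6.81 and 11.4 CPM in bulk tissue, which is 246 counts. The ratio was 366-fold lower in Arc-dVenus+ cells (95% counting interval 100 to 3039). The fitted log2 fold change was -8.16 (standard error 1.16, adjusted p = 0.00118 in edgeR's quasi-likelihood test). With 1 count left, the ratio was 582 (103 to 23079) without FC39 and 535 (95.2 to 21230) without Shock30. Without FC bulk tissue Sema4g was under the minimum and was not tested. Sema3c and Sema4g, and Plxnb1 below, passed the minimum on their bulk-tissue values, so that passing it already required them to differ.

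Sema6d, a transmembrane ligand of Plxna1, was present in every pool at about the same level. It lies at chr2:123915705-124493506 on the plus strand. It measured 56.2, 43.9, 60.2, 40.4 and 61.7 CPM in Arc-dVenus+ pools, against 176, 162 and 162 CPM in bulk tissue. The groups lay far apart beside their spread, at 52.5 ± 9.72 CPM (SD, n = 5) and 166 ± 8.04 CPM (SD, n = 3). The log2 fold change was -1.41 (standard error 0.21, adjusted p = 0.00155 in edgeR's quasi-likelihood test), and it was called in all 8 fits without 1 library.

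Plxnb1, the receptor of Sema4d, lies at chr9:108997950-109022425 on the plus strand. It measured 6.11, 0.150, 5.03, 0 and 0.0978 CPM in Arc-dVenus+ pools, against 65.9, 59.9 and 68.4 CPM in bulk tissue. FC39 and FC23 held nearly all of its 218 counts in sorted cells, and every pool lay far below bulk tissue. The log2 fold change was -4.58 (standard error 1.32, adjusted p = 0.0453 in edgeR's quasi-likelihood test). The call stood in 2 of 8 fits without 1 library, those without FC39 (log2 fold change -5.31) and without Shock30. The call was lost without FC40 (log2 fold change -4.29, adjusted p = 0.0711), FC23 (-5.12, 0.0535) or Shock33 (-4.29, 0.0550). It was also lost without FC bulk tissue (-4.60, 0.135) or shock-only bulk tissue 1 (-4.66, 0.118) or 2 (-4.55, 0.126).

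**Figure D2:**
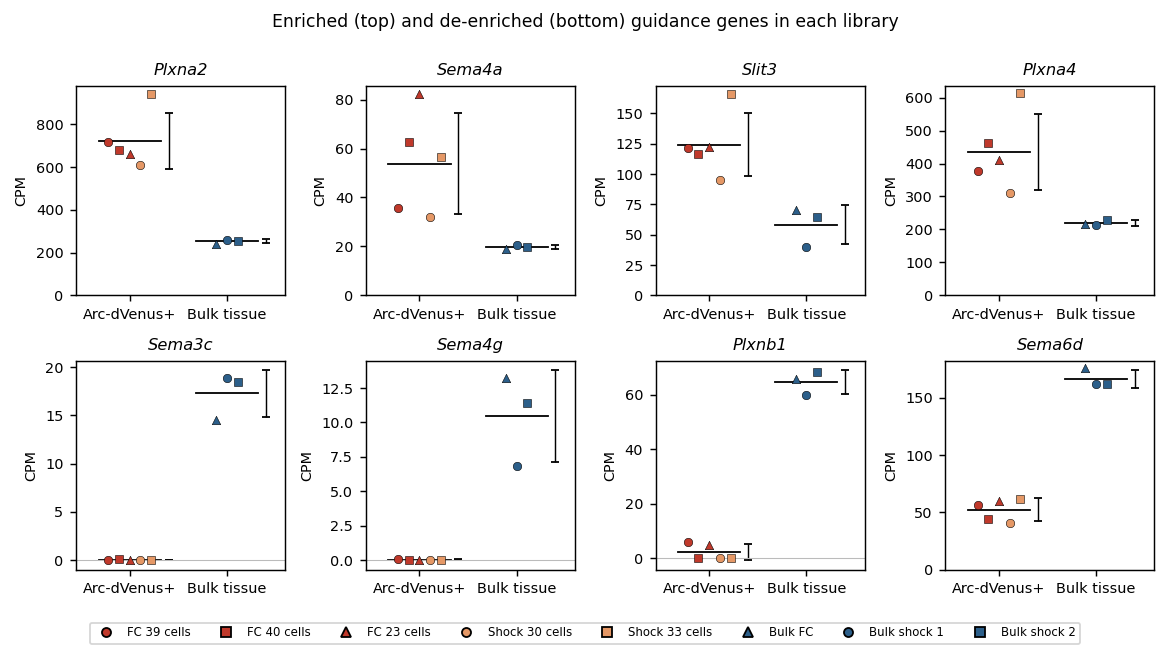
CPM of the 4 enriched (top) and 4 de-enriched (bottom) guidance genes in each library, with Arc-dVenus+ pools on the left and bulk tissue on the right of each panel, lines at the means and bars of 1 SD. The pools do not overlap bulk tissue in any panel, and Sema3c and Sema4g lie at or close to 0 CPM in all 5 pools.

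Markers of other cell types were also lower in the sorted pools, beside each de-enriched gene above. Summed CPM of 9 inhibitory neuron markers was 33.5 to 43.3 in Arc-dVenus+ pools, against 701 to 711 in bulk tissue, and all 9 were de-enriched. It was 883 to 1488 against 7089 to 8267 for 9 astrocyte markers, of which 7 were de-enriched. It was 31.6 to 80.9 against 359 to 391 for 8 oligodendrocyte markers (5 of the 6 tested were de-enriched). For 6 markers of their precursors it was 0.225 to 55.4 against 127 to 151 (2 of the 6 tested). These lists are lower in every pool, but not at 0. The sums were 1.86 to 70.2 against 244 to 295 for 9 microglia markers (3 of the 7 tested were de-enriched). They were 0.293 to 3.81 against 144 to 170 for 8 endothelial markers (6 of the 7 tested). For 8 markers of mural cells and fibroblasts they were 5.52 to 20.6 against 164 to 175 (4 of the 6 tested). Of these markers, Dlx1, Mag, Olig2, C1qa, Cldn5, Kdr and Kcnj8 were at 0 in all 5 pools. Every other marker of these lists had a count in some pool. The sum of 6 excitatory neuron markers was 4434 to 5899 in Arc-dVenus+ pools, against 6884 to 7742 in bulk tissue. Of the 6, 1 was enriched and 0 were de-enriched, and a sum mostly follows its most abundant genes. By its own analysis, the study reported the excitatory marker Slc17a7 as enriched in these cells. The part of cell type make-up in the guidance gene values was not tested, and fewer cells of a type cannot be told apart from less RNA per cell.

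Promoter sequences are printed for Plxna2, which had the lowest adjusted p, for the enriched ligand Slit3 and for Sema3c, which had the largest change. They are RefSeq windows of GRCm38.p6, running 250 bases before to 50 bases after the start, in the direction of the gene. Windows were found for 58 of the 68 guidance genes, and Plxna4 was not among them. Capitals mark a match to GCGTGGGCG, the motif of the activity-induced Egr transcription factors.
Plxna2, chr1:194619579-194619878, plus strand: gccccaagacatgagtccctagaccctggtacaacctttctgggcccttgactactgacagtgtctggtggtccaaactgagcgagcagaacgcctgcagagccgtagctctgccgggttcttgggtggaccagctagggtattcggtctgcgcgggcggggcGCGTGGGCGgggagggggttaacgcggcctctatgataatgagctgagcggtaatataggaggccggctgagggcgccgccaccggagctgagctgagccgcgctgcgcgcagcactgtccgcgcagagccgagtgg
Slit3, chr11:35121206-35121505, plus strand: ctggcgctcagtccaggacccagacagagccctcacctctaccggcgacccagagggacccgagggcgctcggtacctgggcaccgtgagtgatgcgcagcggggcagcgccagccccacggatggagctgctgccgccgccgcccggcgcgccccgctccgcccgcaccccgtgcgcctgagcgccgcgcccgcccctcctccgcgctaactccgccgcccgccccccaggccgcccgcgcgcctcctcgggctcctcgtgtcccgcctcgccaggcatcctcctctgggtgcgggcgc
Sema3c, chr5:17574566-17574865, plus strand: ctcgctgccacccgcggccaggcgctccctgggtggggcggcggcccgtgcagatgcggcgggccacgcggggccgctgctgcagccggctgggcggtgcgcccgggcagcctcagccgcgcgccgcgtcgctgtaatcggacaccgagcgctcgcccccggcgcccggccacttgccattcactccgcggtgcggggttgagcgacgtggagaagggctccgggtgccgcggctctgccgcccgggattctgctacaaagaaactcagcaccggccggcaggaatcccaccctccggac
The windows are 64.7% GC with 25 CpG in Plxna2, 78.3% GC with 41 CpG in Slit3 and 75.7% GC with 42 CpG in Sema3c, against a median of 52.7% GC and 7 CpG over 32851 promoter windows. The Egr match in Plxna2 begins at position -87 from the start, on the strand shown. On either strand, the Egr motif was found in 2 of the 58 guidance genes, Plxna2 and Efna3, and in 0.707% of 27025 genes with a window. The AP-1 motif TGANTCA was found in 3, Sema4c, Sema4d and Sema6b, and in 8.97% of all genes. The CRE motif TGACGTCA (2.03% of all genes) was found in none of the 58. A match of letters is a description and does not show binding. Of the 4 enriched genes, Plxna2 was the one with a match to any of these 3 motifs, with no window for Plxna4.

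Among the 18 tested semaphorins, 1 was enriched (5.56%, against 3.13% of all tested genes) and 3 were de-enriched (16.7%, against 6.58%). Their median log2 fold change was -0.38 with TMM, against 0.10 over all tested genes. With library totals alone it was -0.63, against -0.15 over all tested genes. In 7 of the 18 semaphorins (38.9%) every Arc-dVenus+ pool was below every bulk library. Over all guidance genes this held for 12 of 58 (20.7%, against 21.4% of all tested genes), and the opposite order held for 5 (8.62%, against 5.97%), namely Plxna2, Plxna4, Slit3, Sema4a and Epha6. Sema3e, the ligand of Plxnd1, measured 1.53, 1.73, 2.94, 3.48 and 0.489 CPM in Arc-dVenus+ pools, against 14.9, 11.7 and 13.1 CPM in bulk tissue. Its log2 fold change of -2.42 did not pass (standard error 0.76, adjusted p = 0.0637 in edgeR's quasi-likelihood test). Sema3e, too, reached the minimum on its bulk-tissue values, so that being tested already required it to differ. It passed by the exact test of edgeR (adjusted p = 0.0212), DESeq2 (0.0246), limma-voom (0.0479) and with library totals alone (0.0453), and without Shock30 (0.0415) or Shock33 (0.0474). It did not pass without FC39 (0.102), FC40 (0.0938) or FC23 (0.0634), without FC bulk tissue (0.257) or shock-only bulk tissue 1 (0.202) or 2 (0.223), with RLE scaling (0.0647), with no minimum count (0.0551) or with condition as a covariate (0.0924).

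The class 4 semaphorins Sema4b, Sema4d and Sema4f, which are transmembrane proteins, also lay below bulk tissue in every pool without passing the test. Sema4d, the ligand of Plxnb1, measured 11.5, 12.9, 4.17, 1.82 and 16.04 CPM in Arc-dVenus+ pools, against 31.4, 36.2 and 40.8 CPM in bulk tissue (a log2 fold change of -1.72, adjusted p = 0.113 in edgeR's quasi-likelihood test and 0.0273 by limma-voom). Sema4b measured 10.1 to 19.5 CPM against 30.0 to 37.1 CPM (log2 fold change -1.06), and Sema4f 21.4 to 51.9 CPM against 60.4 to 69.3 CPM (-0.59). Sema3a, the secreted repellent of cortical axons, measured 62.1 to 188 CPM against 74.4 to 91.8 CPM (0.68). Sema6a and Sema6b, transmembrane ligands of class A plexins, overlapped bulk tissue at 22.9 to 62.1 CPM against 32.6 to 50.6 CPM (0.16) and 23.4 to 56.3 CPM against 38.4 to 52.0 CPM (-0.01). Both signs depend on the scaling, since Sema6a was at -0.10 with library totals alone and Sema6b at 0.03 by DESeq2.

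In 9 of the 18 semaphorins 1 pool held over 50% of the CPM summed over the pools. The same held for 16 of the 58 guidance genes (27.6%) and for 18.5% of all tested genes. Sema3c and Sema4g are among the 9, with 1 and 2 counts in the pools. Sema3f, Sema6c, Epha8 and Ntn5 reached the minimum of 20 CPM only through their highest pool, so that being tested already required that pool to be high. Sema5b, a transmembrane semaphorin, measured 26.3, 111, 52.5, 14.95 and 3.42 CPM in Arc-dVenus+ pools, against 16.1, 13.6 and 10.4 CPM in bulk tissue (log2 fold change 1.89, standard error 0.89, adjusted p = 0.223 in edgeR's quasi-likelihood test). The 3 FC pools were above bulk tissue and 1 shock-only pool was below it. Sema5a, a related protein, measured 68.2, 12.2, 8.601, 17.7 and 19.5 CPM, against 60.4, 50.5 and 45.3 CPM. Its log2 fold change was -0.81 in all libraries (adjusted p = 0.475). Among the settings tried, it passed only without FC39, a pool picked for being its highest (-1.57, adjusted p = 0.0332). Sema7a, the lipid-anchored ligand of Plxnc1, measured 32.8, 142, 41.0, 48.4 and 9.29 CPM, against 63.9, 81.7 and 74.4 CPM.

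Of the semaphorins at low levels, 4 more had most of their pool CPM in 1 pool. Sema6c was at 24.5 CPM in Shock30 and at 3.17, 0.300, 0 and 0 CPM in the other pools, against 3.25, 2.44 and 5.20 CPM in bulk tissue. Sema3f, a ligand of neuropilin-2, was at 14.3 CPM in that same pool and at 2.06, 1.20, 1.49 and 0.587 CPM in the others, against 2.03, 2.34 and 1.55 CPM in bulk tissue. Shock30 also held the highest sums of oligodendrocyte precursor (55.4 CPM), astrocyte (1488 CPM) and endothelial markers (3.81 CPM). For precursor markers FC23 came next, at 26.3 CPM. The part of these cell types in the values was not tested. Sema3d measured 2.53, 0, 0.634, 0 and 8.71 CPM, against 6.77, 6.60 and 8.86 CPM, and Sema4c, a ligand of Plxnb2, measured 0.705, 18.6, 1.09, 2.61 and 11.8 CPM, against 7.85, 4.37 and 5.06 CPM. In each of these genes the pools ranged from below to near or above the bulk-tissue libraries.

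**Figure D3:**
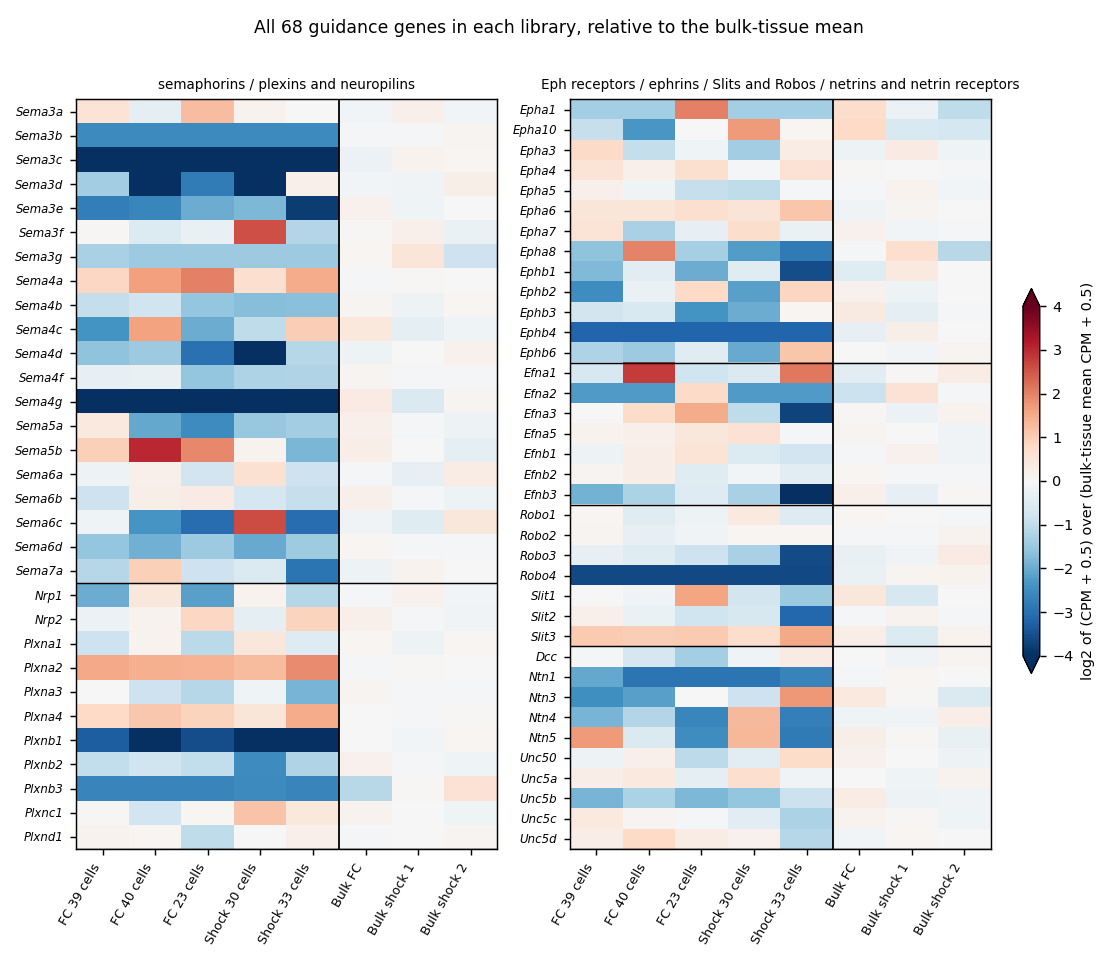
Each of the 68 guidance genes (rows) in each library (columns, Arc-dVenus+ pools left of the black line, bulk tissue right), as log2 of CPM plus 0.5 over the bulk-tissue mean plus 0.5, with colours stopping at 4. Plxna2, Plxna4, Slit3 and Sema4a are red in all 5 pools, Sema3c, Sema4g and Plxnb1 are blue in all 5, and many other rows change colour from pool to pool while bulk tissue stays pale.

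Of the 10 tested plexins and neuropilins, the receptors of the semaphorins, 2 were enriched (20%, against 3.13% of all tested genes) and 1 was de-enriched (10%, against 6.58%). Their median log2 fold change was 0.10, as over all tested genes. With library totals alone it was -0.16, against -0.15 over all tested genes. The enriched genes are class A plexins, but the other class A plexins did not pass. Plxna1 measured 58.2, 115, 48.3, 142 and 71.7 CPM in Arc-dVenus+ pools, against 110.0, 90.1 and 110.3 CPM in bulk tissue, and 10.7% of its exon length overlaps another annotated gene. Its log2 fold change was 0.01, and -0.25 with library totals alone. Plxna3 measured 5.48 to 20.8 CPM against 20.1 to 23.1 CPM (-0.42). Plxnb2, a receptor of Sema4c, was below bulk tissue in every pool, at 5.30 to 18.8 CPM against 29.3 to 37.0 CPM, without passing (-0.97, adjusted p = 0.215 in edgeR's quasi-likelihood test). Plxnc1 measured 50.4 to 192 CPM against 76.1 to 95.2 CPM (0.60), and Plxnd1 measured 44.9 to 106 CPM against 87.0 to 98.9 CPM (0.19). The co-receptors overlapped bulk tissue, Nrp1 at 3.85 to 26.1 CPM against 17.7 to 21.5 CPM (-0.31) and Nrp2 at 90.8 to 221 CPM against 109 to 137 CPM (0.60).

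None of the 11 tested Eph receptors was called. Epha4, which binds both ephrin-As and ephrin-Bs, and Epha6 passed the adjusted p but not the fold. Epha6 measured 83.4, 84.5, 93.8, 85.4 and 131 CPM in Arc-dVenus+ pools, against 54.0, 64.7 and 60.6 CPM in bulk tissue (log2 fold change 0.93, standard error 0.24, adjusted p = 0.0280 in edgeR's quasi-likelihood test). The groups did not overlap, and the value was 1.06 without Shock30 and 1.01 with condition as a covariate, both past the fold required. The adjusted p was over 0.05 with library totals alone (0.105), by limma-voom (0.0565), without FC bulk tissue (0.187) and without shock-only bulk tissue 1 (0.124) or 2 (0.135). Epha4 measured 427, 330.1, 455, 282 and 437 CPM in Arc-dVenus+ pools, against 299, 295 and 275 CPM in bulk tissue, with 1 pool inside the bulk range (log2 fold change 0.67, standard error 0.18, adjusted p = 0.0320 in edgeR's quasi-likelihood test). Epha5 (log2 fold change -0.07), Epha7 (0.30) and Epha3 (0.15), receptors of ephrin-As, overlapped bulk tissue. Ephb1 (-1.06), Ephb2 (0.19) and Ephb3 (-0.63), receptors of ephrin-Bs, overlapped it too, and their pools ranged more widely than bulk tissue, as in Ephb2 with 2.53 to 30.1 CPM against 14.2 to 18.5 CPM. With library totals alone the signs of Epha3 (-0.09) and Ephb2 (-0.07) turned.

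The remaining Eph receptors had most of their pool CPM in 1 library. Epha8 measured 0.646, 13.5, 0.905, 0.248 and 0 CPM in Arc-dVenus+ pools, against 2.84, 5.08 and 1.13 CPM in bulk tissue. Epha10 and Ephb6 are Eph receptors without kinase activity. Epha10 measured 3.58, 1.05, 7.38, 24.8 and 7.73 CPM in Arc-dVenus+ pools, against 12.99, 4.57 and 4.22 CPM in bulk tissue, and Ephb6 15.7, 13.4, 26.7, 8.86 and 81.8 CPM, against 37.8, 34.9 and 40.5 CPM. In each the highest library of all 8 was a sorted pool, a different one for each gene, and the group means differed by less than the spread of the pools.

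No ephrin was called among 5 tested. Efna5, an ephrin-A, measured 77.3 to 120 CPM in Arc-dVenus+ pools, against 71.3 to 85.8 CPM in bulk tissue (a log2 fold change of 0.55, adjusted p = 0.161 in edgeR's quasi-likelihood test). Efnb2 measured 54.6 to 92.0 CPM against 75.5 to 80.8 CPM (0.14) and Efnb1 4.11 to 10.8 CPM against 6.61 to 8.23 CPM (0.19), and with library totals alone both had the opposite sign, at -0.11 and -0.06. Efnb3 was lower in every pool, at 0.293 to 10.4 CPM against 11.9 to 17.3 CPM, without passing (-1.26, adjusted p = 0.432). Efna3 measured 0.196 to 24.6 CPM against 7.21 to 9.42 CPM (0.53), and 14.1% of its exon length overlaps another annotated gene.

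Of the 6 tested Slits and Robos, Slit3 alone was called (16.7% enriched, against 3.13% of all tested genes). Slit1 measured 15.2, 13.7, 46.8, 8.99 and 5.09 CPM in Arc-dVenus+ pools, against 20.8, 9.65 and 15.1 CPM in bulk tissue, with 52.1% of its pool CPM in FC23. Slit2 measured 7.24 to 78.3 CPM against 64.4 to 74.1 CPM (log2 fold change -0.35), so that the fitted values of the ligands differed in sign. Their receptors Robo1 (44.6 to 83.9 CPM against 62.2 to 67.9 CPM, 0.15) and Robo2 (97.8 to 131 CPM against 115 to 135 CPM, 0.22) overlapped between the groups, and with library totals alone both were below 0, at -0.11 and -0.03. Robo3, which in mammals does not bind Slits with high affinity, was below bulk tissue in every pool, at 1.37 to 17.3 CPM against 17.9 to 27.9 CPM, without passing (-0.75, adjusted p = 0.580 in edgeR's quasi-likelihood test).

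Nor was a gene called among the 8 tested netrins and netrin receptors, Unc50 included. Dcc, the attractive netrin-1 receptor, measured 115, 76.4, 47.9, 108 and 153 CPM in Arc-dVenus+ pools, against 125, 110.3 and 133 CPM in bulk tissue (log2 fold change -0.04, standard error 0.33, adjusted p = 0.968 in edgeR's quasi-likelihood test). Of the repulsive receptors, Unc5a (48.7 to 99.4 CPM against 56.0 to 68.8 CPM, 0.47), Unc5c (29.1 to 91.9 CPM against 61.9 to 77.4 CPM, 0.09) and Unc5d (74.8 to 286 CPM against 154 to 172 CPM, 0.45) overlapped bulk tissue. Unc5b was below it in every pool, at 7.46, 11.7, 7.83, 9.52 and 15.6 CPM against 35.6, 24.6 and 25.9 CPM (-1.20, adjusted p = 0.113). Among the settings tried, it passed only without its highest pool, Shock33 (-1.40, adjusted p = 0.0470). Leaving out the highest pool of a gene that is lower in the pools deepens its difference by construction. The ligand Ntn3 measured 0.999, 1.35, 7.70, 4.14 and 26.8 CPM in Arc-dVenus+ pools, against 10.3, 8.02 and 5.06 CPM in bulk tissue, and Ntn5 measured 10.99, 1.88, 0.136, 8.49 and 0 CPM, against 3.65, 3.15 and 2.39 CPM, with 25.9% of its exon length shared with another gene. Unc50 measured 17.4 to 62.1 CPM against 32.2 to 41.8 CPM (0.23).

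**Figure D4:**
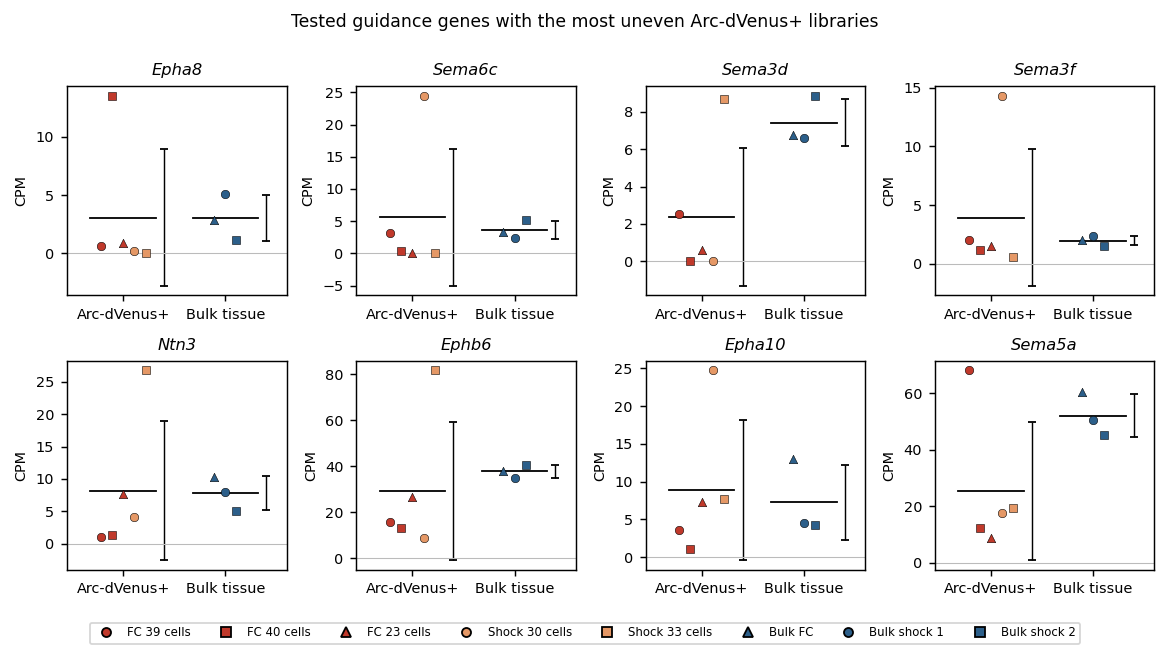
CPM of the 8 tested guidance genes, called genes aside, in which 1 Arc-dVenus+ pool held the largest share of the pools' summed CPM, with pools left and bulk tissue right, lines at the means and bars of 1 SD. Epha8 is high in FC40, Sema6c and Sema3f in Shock30 and Ntn3 in Shock33.

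Pools spread more than bulk libraries, in guidance genes and in all genes. The median coefficient of variation over the tested guidance genes was 0.487 in Arc-dVenus+ pools and 0.122 in bulk tissue, and over all tested genes it was 0.531 and 0.115.

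The other 10 guidance genes were under 20 CPM in total and were not tested. Robo4 and Ephb4, both best known from endothelial cells, and Sema3b, a secreted semaphorin, had no count in any Arc-dVenus+ pool. Robo4 measured 4.60, 6.09 and 6.19 CPM in bulk tissue and was at least 137-fold lower in Arc-dVenus+ pools, with 3 counts over the pools (0.0346 CPM) as the floor. Ephb4, the receptor of Efnb2 on veins, measured 3.11, 4.77 and 4.08 CPM in bulk tissue and was at least 98.2-fold lower. Sema3b measured 2.30, 2.34 and 2.67 CPM and was at least 58.5-fold lower. These floors cover counting error only, and not the spread between small amplified pools. Of 8 endothelial markers, Cldn5 and Kdr were at 0 in all 5 pools and the others were not. The sum of all 8 was 0.293 to 3.81 CPM in the pools, against 144 to 170 CPM in bulk tissue. The part of endothelial cells in these values was not tested. Plxnb3, a receptor of Sema5a, had 1 count in the pools, against 0.947, 2.74 and 4.22 CPM in bulk tissue, and was 190-fold lower (95% counting interval 33 to 7638), or at least 46.4-fold without Shock30. Sema3g also had 1 count, against 0.947, 1.42 and 0.281 CPM, and was 68.4-fold lower (11.1 to 2819), or at least 18.1-fold without FC39. Fitted without a minimum, 9 guidance genes were de-enriched, the 4 above and these 5, where 10.2% of all 15437 genes were.

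The other 5 were low or uneven in the pools. Ntn1, the attractant netrin-1, measured 0.411, 0, 0, 0 and 0.0978 CPM in Arc-dVenus+ pools, against 3.11, 3.56 and 3.24 CPM in bulk tissue, and its adjusted p in the fit without a minimum was 0.0591. Ntn4 measured 0.411, 0.976, 0.0453, 7.66 and 0 CPM, against 2.44, 2.54 and 3.52 CPM. Efna1 measured 0.0588, 5.48, 0, 0.0828 and 3.23 CPM, against 0.135, 0.406 and 0.563 CPM. The ephrin Efna2 and the receptor Epha1 were each found in FC23 alone, at 3.58 CPM against 0.812 to 3.05 CPM in bulk tissue, and at 4.71 CPM against 0.141 to 1.62 CPM.

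FC and shock-only pools were compared to ask whether tone and shock together left another profile than shock alone, over 10798 genes, 51 of them guidance genes. No guidance gene was called, and 0% of all genes were, by edgeR's quasi-likelihood test with 3 pools against 2. At an unadjusted p under 0.05 there were 2 of 51 guidance genes and 648 of all genes (6.00%), and the lowest adjusted p among the guidance genes was 0.812 (0.317 by edgeR's exact test, 0.056 by DESeq2 and 0.846 by limma-voom). By other tools, 8 genes in all were called by edgeR's exact test, 96 by DESeq2 and 0 by limma-voom, none of them a guidance gene. The genes with an unadjusted p under 0.05 were Plxnc1, at 89.5, 50.4 and 91.7 CPM in FC pools against 192 and 116 CPM in shock-only pools (log2 fold change -1.06, FC over shock only), and Sema5b, at 26.3, 111 and 52.5 CPM against 14.95 and 3.42 CPM (2.72). Both genes were picked here by their unadjusted p, and neither passed the adjustment. Of the enriched genes, log2 fold changes were -0.24 for Plxna2 (standard error 0.237), -0.20 for Plxna4 (0.315), -0.18 for Slit3 (0.362) and 0.40 for Sema4a (0.549). A p that misses the threshold does not show that FC and shock-only pools were alike.

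Genes that act with these ligands and receptors were counted from a list of 56 co-receptors, further cues and cytoplasmic effectors, of which 55 were in the table and 53 were tested. Of these, 3 were enriched (5.66%, against 3.13% of all tested genes) and 2 de-enriched (3.77%, against 6.58%), and the median log2 fold change was 0.28, against 0.10 over all tested genes. L1cam, an adhesion molecule that joins neuropilin-1 in the Sema3a receptor, measured 485, 462, 302, 433 and 615 CPM in Arc-dVenus+ pools, against 203, 165 and 203 CPM in bulk tissue (log2 fold change 1.53, standard error 0.22, adjusted p = 0.00142 in edgeR's quasi-likelihood test). Mical2, which oxidizes actin, was at 321 to 558 CPM against 214 to 285 CPM (1.08, adjusted p = 0.00773). L1cam was called in all 8 fits without 1 library. Mical2 did not pass without shock-only bulk tissue 1 (0.96, adjusted p = 0.0613), FC bulk tissue (1.03, 0.0588) or FC40 (0.97, under the fold).

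Cntn2, an adhesion molecule of axons and of myelinating glia, was de-enriched, at 48.7, 59.8, 38.3, 72.0 and 40.01 CPM in Arc-dVenus+ pools, against 186, 163 and 162 CPM in bulk tissue (log2 fold change -1.46, standard error 0.25, adjusted p = 0.00366 in edgeR's quasi-likelihood test). Dpysl5, a collapsin response mediator protein that acts downstream of semaphorins, was at 0.0588, 0, 0.0905, 0 and 1.17 CPM, against 15.3, 14.5 and 12.5 CPM (-5.54, standard error 1.48, adjusted p = 0.0320). It too passed the minimum on its bulk-tissue values, which required it to differ. Shock33 held 12 of its 15 counts in sorted cells, and leaving that pool out gave -7.99. Its call was lost without FC39 (log2 fold change -5.28, adjusted p = 0.0644) or FC23 (-5.32, 0.0609). It was also lost without FC bulk tissue (-5.48, 0.115) or shock-only bulk tissue 1 (-5.52, 0.103) or 2 (-5.61, 0.0938). Pak1 (0.66), Trio (0.69) and Flrt2 (0.78), the last a ligand of Unc5 receptors, passed the adjusted p but not the fold.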

How the data were processed

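The data are 5 Arc-dVenus+ and 3 bulk-tissue RNA-Seq libraries of the TeA, made with Ovation amplification. Reads were aligned with RUM to mm9, and for 1 transcript variant of each gene the authors deposited raw counts of uniquely aligning reads. Whether counting used strand is not given in the sources used here. The authors also deposited CPM, which matched the counts over library totals (largest gap 5e-04 CPM). Their fold changes and p-values of Arc-dVenus+ cells over bulk tissue were not used, nor were sheets of gene subsets.

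Counts were tested with edgeR 4.0.16 (quasi-likelihood, TMM, Benjamini-Hochberg over all genes with at least 20 CPM in total), and DESeq2 1.42.0 and limma 3.58.1 served as alternatives in R 4.3.3. The standard error is the log2 fold change over the square root of F. Tables and figures were made with pandas 2.3.3, numpy 2.4.6, scipy 1.17.1 and matplotlib 3.10.9 in Python 3.11.15. The fits were also run on simulated counts with known changes, whose outcome is not reported here. The simulation gave both groups the same spread for each gene, unlike the pools and bulk tissue measured here. Totals of 7110598 to 24151755 counts set the precision. The floor for a count of 0 was 3 counts over the group. This floor and the intervals (95%, exact) cover counting error only. Gene positions were read from GENCODE M1 (mm9).

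Named genes are every gene that matched the symbol rule, and the called genes of the pathway list, of which some values are not reported here. Members, lists and tests were chosen with earlier results of these data known. Other settings tried were the exact test of edgeR, DESeq2, limma-voom, RLE scaling, library totals alone, minimums of 0 and 80 CPM, leaving out each library, a term for condition, shock-only libraries by themselves, and no minimum fold.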

Additional observations from a re-analysis of the deposited data

Results flagged for a closer look

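In 17 of 65 guidance genes with a count in the pools, 1 Arc-dVenus+ pool lay apart from the other 4 by Dixon's criterion. In tested genes this held for 11 of 58 (19%), against 1831 of all 12493 tested genes (14.7%), and chance alone flags about 1 in 20 groups of normally distributed values, which low CPM with zeros are not. Of the tested genes, Epha8, Sema3f and Sema6c reached the minimum only through the pool that lay apart. Plxnb3, Sema3c and Sema3g had a single count in all pools, and Epha1 and Efna2 had counts in 1 pool, so that they met the criterion by construction. By pool, 3 were in FC39, 2 in FC40, 4 in FC23, 5 in Shock30 and 3 in Shock33. Plxnd1 was low in 1 pool, at 44.9 CPM in FC23 against 92.3 to 106 CPM in the others, and in the other 16 genes the pool was high.

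FC39 stood apart in Sema5a (68.2 CPM, others at most 19.5), Ntn1 (0.411, others at most 0.0978) and Sema3g (0.0588, others 0). FC40 stood apart in Epha8 (13.5 CPM, others at most 0.905) and Sema3c (0.0751, others 0). FC23 stood apart in Slit1 (46.8 CPM, others at most 15.2), and in Epha1 (4.71) and Efna2 (3.58), both at 0 in the others. Shock30 stood apart in Epha10 (24.8 CPM, others at most 7.73), Sema6c (24.5, others at most 3.17), Sema3f (14.3, others at most 2.06), Ntn4 (7.66, others at most 0.976) and Plxnb3 (0.0414, others 0). Shock33 stood apart in Epha6 (131 CPM, others at most 93.8), Ephb6 (81.8, others at most 26.7) and Ntn3 (26.8, others at most 7.70). The values 0.0588, 0.0751 and 0.0414 CPM are 1 count each. Shock30 also had the highest sums of oligodendrocyte precursor (55.4 CPM), astrocyte (1488 CPM) and endothelial markers (3.81 CPM). Shock33 had the highest sums of microglia (70.2 CPM) and inhibitory neuron markers (43.3 CPM). The highest sum was in FC39 for oligodendrocyte markers (80.9 CPM), in FC40 for mural cells and fibroblasts (20.6 CPM) and in FC23 for excitatory neurons (5899 CPM). The part of these cell types in the values was not tested.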

How the results depend on the processing

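Of the 58 tested guidance genes 4 were enriched and 4 de-enriched, and in alternatives not given here by name they numbered 3 to 6 and 4 to 6. Enriched genes numbered 2 to 5 and de-enriched genes 2 to 5 with 1 library left out, and both 0 in the shock-only libraries alone, 2 pools against 2 bulk libraries, where 4 of 11159 genes were called in all and an unadjusted p was under 0.05 in 12 of 54 guidance genes (22.2%) and 22.7% of all genes. De-enriched genes were 9 with no minimum count and 2 with a minimum of 80 CPM. Enriched pathway genes were 1 with library totals alone and with a minimum of 80 CPM, 0 in the shock-only libraries alone and 6 with no minimum fold, and 1 to 3 with 1 library left out. De-enriched pathway genes were 4 by limma-voom, 1 with a minimum of 80 CPM and 0 in the shock-only libraries alone, and 1 to 2 with 1 library left out. Guidance genes called between FC and shock-only pools were 0 in every alternative run.

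Of 58 log2 fold changes, 26 changed sign in some alternative, none of them of a called gene, and the cause was not tested. By DESeq2 and with RLE scaling Dcc was at 0.02 and Sema6b at 0.03, and with no minimum count at 0.01 and 0.04. With library totals alone Efnb1 was at -0.06, Efnb2 -0.11, Epha3 -0.09, Ephb2 -0.07, Plxna1 -0.25, Plxnd1 -0.07, Robo1 -0.11, Robo2 -0.03, Sema6a -0.10, Unc50 -0.03 and Unc5c -0.15. By limma-voom Efna3 was at -0.11, Epha3 -0.18, Epha8 -1.80, Ephb2 -0.62, Ntn3 -0.72, Ntn5 -1.02, Plxna1 -0.09, Sema4c -0.78, Sema6c -2.28 and Unc50 -0.03. With a minimum of 80 CPM Plxna1 was at -0.11 and Unc5c at -0.02. With condition as a covariate Dcc was at 0.03, Efna3 -0.70, Efnb1 -0.04, Epha8 -2.54, Slit1 -0.09 and Unc5c -0.14. In the shock-only libraries alone Dcc was at 0.39, Efna3 -1.74, Efnb1 -0.45, Epha3 -0.13, Ephb6 0.58, Sema5b -0.13, Slit1 -0.54, Unc5c -0.44 and Unc5d -0.12. With 1 library left out the ranges that crossed 0 were -0.25 to 0.14 for Dcc, -0.09 to 0.84 for Efna3, -0.03 to 0.39 for Efnb1, -0.20 to 1.28 for Epha10, -0.18 to 0.46 for Epha3, -0.23 to 0.15 for Epha5, -0.13 to 0.67 for Epha8, -0.20 to 0.55 for Ephb2, -0.98 to 0.22 for Ephb6, -0.86 to 0.62 for Ntn3, -0.15 to 0.16 for Plxna1, -0.24 to 0.85 for Sema4c, 0.00 to 0.34 for Sema6a, -0.22 to 0.17 for Sema6b, -0.90 to 0.10 for Sema7a, -0.26 to 0.77 for Slit1, -0.07 to 0.41 for Unc50 and -0.06 to 0.27 for Unc5c. No paired analysis was run, because the study's methods list the mice of the sorted pools and of bulk tissue as different groups. The labels pair no pool with a bulk library either.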
